A study of Mus musculus with 44 samples.

Results

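The genes described here are 10 members of the Bcl2 family that lie outside the p53-target members Bax, Bbc3 and Pmaip1: Bcl2, Bcl2l1, Mcl1, Bak1, Bok, Bcl2l11, Bid, Bik, Bmf and Bad. They were taken by gene name from the 32287 gene identifiers quantified in the libraries, 21704 of them protein-coding. The Bcl2 family governs the mitochondrial route to cell death. Pro-survival members (Bcl2, Bcl2l1, which encodes BCL-XL, and Mcl1) hold the effectors Bak1 and Bax, the latter a p53 target, in check. Effectors, which also include Bok, permeabilise the outer mitochondrial membrane. BH3-only members (Bcl2l11, which encodes BIM, Bid, Bik, Bmf and Bad) bind the pro-survival proteins or activate Bak1 and Bax. In the early embryo this route is known for removing surplus or unfit cells.

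RNA was measured in 44 low-input poly(A) libraries from mouse chimeras in which GFP+ embryonic stem cells (G4, called F1G4 in the study's methods) were aggregated with an mCherry+ morula (CD1/G4), so that embryonic cells carry GFP and cells with mCherry alone are extraembryonic. At E6.5 the groups were epiblast (Epi), distal extraembryonic endoderm (exEndo 1, from which extraembryonic gut cells arise) and proximal extraembryonic endoderm (exEndo 2, from which yolk sac endoderm arises), each with n = 4 libraries of 1 embryo. At E9.5 they were EPCAM+ cells of the midgut and hindgut of either origin (emMidgut, exMidgut, emHindgut, exHindgut) and yolk sac endoderm (YsEndo), each with n = 4 libraries of 4 pooled embryos, and midgut and hindgut of an origin are together called emGut and exGut. All emMidgut and emHindgut libraries hold GFP+ cells sorted for a low mCherry signal (dual+), not GFP-only cells, which at this stage also include surface ectoderm and germ cells. The study describes dual+ cells as embryonic cells that have taken up material of dying extraembryonic cells, so emGut is a selected set of embryonic gut cells in every comparison that uses it. At E13.5 they were EPCAM+ cells of the small intestine and colon (emSI, exSI, emColon, exColon), each with n = 3 libraries of 1 embryo. They were wild type (WT) where embryonic and carried a Trp53 knockout (KO) where extraembryonic. Embryonic cells of E13.5 were sorted by EPCAM and GFP, without the low mCherry gate used for emGut. The earlier groups carry no Trp53 knockout. Small intestine and colon were cut from the same intestines and E9.5 midgut and hindgut came from pooled posterior parts of embryos, and the labels do not tie libraries to embryos, so libraries of 1 fit can share embryos and p-values may then be too small. Embryonic cells come from this male line, cloned from single cells, with EGFP under the CAG promoter at Rosa26, and extraembryonic cells come from the CD1/G4 hosts, of either sex, whose mCherry under the EF1a promoter came from a colony of G4-derived males kept by crosses to C57BL/6J females. Origin and strain therefore cannot be told apart, and at E13.5 neither can genotype. Cas9 was given to zygotes, which can leave mosaic embryos.

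Values are TPM, a level per transcript length scaled to a fixed total in each library, which can be compared between genes. Differences were tested on log2(TPM + 1) with limma, two-sided, and a gene was called at a Benjamini-Hochberg adjusted p under 0.05 over all genes tested. A difference is on this log2 scale unless a ratio of mean TPM is named, and the added 1 TPM understates the change of low genes. TPM keeps no depth, so the depth behind a level is given as coverage, the mean number of reads over a base. The libraries had 10382 to 13596 genes above 1 TPM, and no pair held the same values. EGFP was 179.6 to 880.2 TPM in embryonic and 0 to 15.9 TPM in extraembryonic libraries, and mCherry was 0 to 6.61 TPM and 1731 to 8667 TPM. Trp53, the targeted gene, was 33.4 to 167 TPM in exSI and 42.5 to 124 TPM in exColon, against 151 to 245 TPM in the WT groups of E13.5; an edited allele can still be transcribed, so these levels do not check the genotype. The protocol text of the Epi samples names another tissue, while the epiblast gene Pou5f1 was 1067 to 1852 TPM there. Dppa3, a germ cell gene, was 224 and 183 TPM in emMidgut replicates 1 and 3 and was listed at 0 in replicates 2 and 4. Epi replicate 4 stood below the other Epi libraries in EGFP (179.6 against 332 to 532 TPM), Pou5f1 (1067 against 1694 to 1852 TPM) and 7 members. In bulk libraries, fewer cells of a type and less RNA per cell cannot be told apart.

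Bok (mm10 chr1:93685660-93695764, + strand), Bcl2l11 (chr2:128126038-128162547, + strand) and Bak1 (chr17:27019810-27029009, - strand) were the members called lower in both extraembryonic populations of E6.5 with separated libraries, and their promoters are shown because they moved together there. RefSeq promoters (GRCm38.p6) span 250 bases before to 50 bases after a transcription start and matched 9 of the 10 members with 15 promoters. The Bok window is chr1:93685325-93685624 on the + strand, the Bcl2l11 window printed, at the gene start given above, chr2:128125788-128126087 on the + strand and the Bak1 window chr17:27028578-27028877 on the - strand. Capitals mark each CG dinucleotide.
Bok: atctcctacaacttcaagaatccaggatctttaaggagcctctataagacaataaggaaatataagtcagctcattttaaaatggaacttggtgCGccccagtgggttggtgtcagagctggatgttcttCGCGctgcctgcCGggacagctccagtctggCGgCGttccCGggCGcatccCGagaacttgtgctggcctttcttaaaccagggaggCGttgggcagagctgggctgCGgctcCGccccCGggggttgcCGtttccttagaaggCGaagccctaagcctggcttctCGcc
Bcl2l11: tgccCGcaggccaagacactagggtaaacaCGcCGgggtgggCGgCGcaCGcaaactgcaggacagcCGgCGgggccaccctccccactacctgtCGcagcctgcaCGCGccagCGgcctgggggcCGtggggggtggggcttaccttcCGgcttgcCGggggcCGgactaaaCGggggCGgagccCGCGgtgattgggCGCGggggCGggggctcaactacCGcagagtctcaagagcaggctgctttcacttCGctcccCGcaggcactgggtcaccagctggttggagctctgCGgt
Bak1: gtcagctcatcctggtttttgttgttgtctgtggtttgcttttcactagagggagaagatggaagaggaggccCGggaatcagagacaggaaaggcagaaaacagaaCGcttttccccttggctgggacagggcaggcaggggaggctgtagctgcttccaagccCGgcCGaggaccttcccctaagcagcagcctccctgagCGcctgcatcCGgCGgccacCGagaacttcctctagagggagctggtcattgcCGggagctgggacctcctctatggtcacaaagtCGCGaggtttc

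These windows of Bok, Bcl2l11 and Bak1 hold 16, 27 and 11 CG, and 33.0%, 15.5% and 41.4% of all 32851 promoters of this length hold as many or more. Across the 15 windows of the members the number ran from 1 to 44, against a median of 7 over all promoters. The motif GTAAACA, searched on both strands, is present once, in the Bcl2l11 window printed above, and in 3.65% of all promoters. A second start of Bcl2l11 has the window chr2:128127325-128127624 on the + strand, which holds 38 CG and no GTAAACA, and 4.95% of all promoters hold as many CG or more. The palindrome CACGTG is in none of the 15 windows and in 7.15% of all promoters.

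Bok had the widest range of the members over the 12 groups, 5.81 on the log2 scale between its lowest and highest group mean, followed by Bik with 5.14 and Bcl2 with 4.38, and Bid had the narrowest with 1.04. In order of mean TPM, Bok ran from YsEndo (0.980 ± 1.09 TPM, SD), exEndo 2 (2.09 ± 2.16) and exEndo 1 (2.16 ± 1.195) through exMidgut (12.6 ± 5.74), emMidgut (24.6 ± 2.20) and Epi (54.6 ± 12.6) to the E13.5 groups and, highest, emHindgut (89.1 ± 7.83) and exHindgut (101 ± 20.2). Of its 11 pairs of neighbouring groups in this order, 3 did not overlap: exEndo 1 and exMidgut, exMidgut and emMidgut, and emMidgut and Epi. For Mcl1, Bcl2l11, Bik, Bak1 and Bmf, 1 pair each did not overlap, and for Bcl2, Bcl2l1, Bid and Bad every pair overlapped. Neighbours in an order of means are the closest groups, so overlap between them is no test of a difference. The same count was not made over all genes. Median coverage over the 44 libraries ran from 2.25 reads per base for Bik to 138 for Mcl1. Bik was listed at 0 in 5 libraries.

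**Figure D1:**
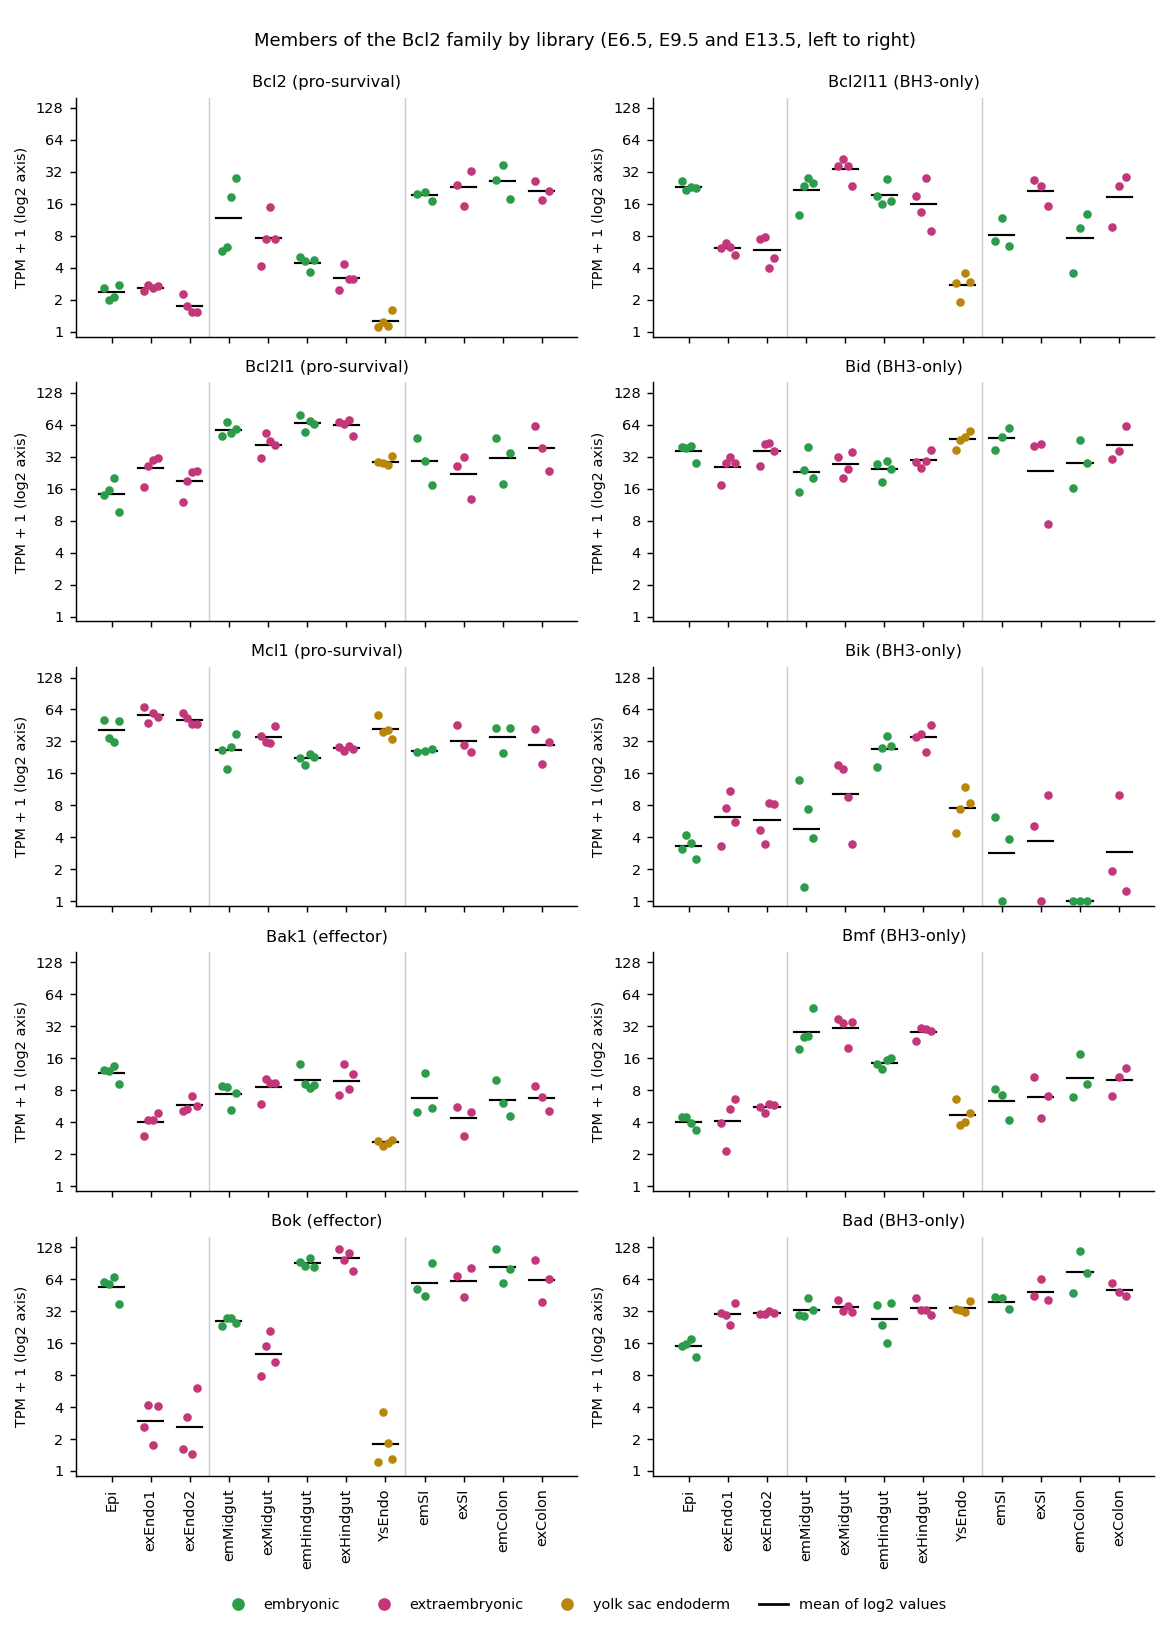
TPM + 1 of the 10 members (log2 axis) in each of the 44 libraries by group; each point is a library and each line the mean of the log2 values. Bok lies at 0.227 to 5.10 TPM in exEndo 1, exEndo 2 and YsEndo and at 6.89 TPM or above in every other group.

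At E6.5 the question is whether the progenitors of exGut and yolk sac differ from the epiblast. In exEndo 1 against Epi, 8 of 10 members were called, 4 higher and 4 lower, beside 64.1% of all 12430 genes. In exEndo 2 against Epi, 5 of 10 were called, 1 higher and 4 lower, beside 65.8% of all genes. The shares of members called lie on either side of these backgrounds, and the members' median differences of 0.09 and 0.17 stand beside 0.11 and 0.07 over all genes. Both comparisons use the same Epi libraries, and without Epi replicate 4 they called 6 and 5 members. Of 9 marker lists, 4 had sums without overlap between Epi and exEndo 1 and 6 between Epi and exEndo 2, and their part in the differences was not tested. The visceral and yolk sac endoderm sum was 0.823 to 2.37 TPM in Epi, 8417 to 13459 TPM in exEndo 1 and 4498 to 8469 TPM in exEndo 2, the epiblast sum 1648 to 2867, 52.3 to 393 and 5.21 to 35.1 TPM and the neural sum 33.8 to 40.6, 0.780 to 2.63 and 0.652 to 2.11 TPM. The endothelium sum was also apart in exEndo 1 (1.62 to 2.46 TPM in Epi and 0.188 to 0.828 TPM). In exEndo 2 the mesenchyme sum (1.30 to 7.88 TPM in Epi and 45.4 to 88.0 TPM), the germ cell sum (10.8 to 30.4 and 2.002 to 2.84 TPM) and the blood sum (0.0442 to 0.172 and 0.230 to 1.06 TPM) were apart as well.

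Both effectors were lower in extraembryonic endoderm than in Epi. Bok was 59.2, 56.5, 65.9 and 36.7 TPM in Epi, 1.59, 3.22, 0.746 and 3.07 TPM in exEndo 1 and 0.597, 2.21, 0.459 and 5.10 TPM in exEndo 2. Every Epi library was above every extraembryonic library, and the mean TPM of Epi was 25.3 and 26.1 times that of exEndo 1 and exEndo 2. The second ratio was 50.2 without exEndo 2 replicate 4, the library of that group with the highest EGFP (3.59 TPM) and Pou5f1 (4.51 TPM). In exEndo 1, in the order above, EGFP was 1.09, 13.7, 0.0664 and 15.9 TPM and Pou5f1 was 9.29, 21.7, 2.28 and 17.4 TPM. The part of epiblast material in the Bok levels of extraembryonic endoderm was not tested. The differences from Epi were -4.195 (SE 0.41, limma adjusted p = 4.77e-07) and -4.39 (SE 0.41, adjusted p = 2.59e-07). Bak1 was 11.3, 11.2, 12.7 and 8.21 TPM in Epi, 1.98, 3.22, 3.22 and 3.86 TPM in exEndo 1 and 4.07, 4.36, 6.09 and 4.71 TPM in exEndo 2. The extraembryonic libraries were again all below Epi, with differences of -1.55 (SE 0.19, adjusted p = 6.74e-06) and -1.03 (SE 0.19, adjusted p = 0.000297). Bak1 overlaps Ggnbp1 on the opposite strand, and whether reads were counted by strand is not given in the sources used here, so reads of the shared stretch cannot be told apart.

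Among BH3-only members, Bcl2l11, which encodes a strong and broadly acting killer, was lower as well. It was 25.3, 20.4, 21.9 and 21.5 TPM in Epi, 5.16, 5.81, 5.31 and 4.32 TPM in exEndo 1 and 6.40, 6.86, 2.97 and 3.98 TPM in exEndo 2. All Epi libraries were above all others, with differences of -1.92 (SE 0.21, limma adjusted p = 1.48e-06) and -1.996 (SE 0.21, adjusted p = 8.76e-07). Bad, whose protein is held inactive by survival-factor phosphorylation, had the opposite order. It was 14.1, 14.8, 16.4 and 10.8 TPM in Epi, 29.6, 28.3, 22.8 and 37.3 TPM in exEndo 1 and 28.9, 29.2, 30.9 and 29.4 TPM in exEndo 2, with no overlap with Epi and differences of 1.01 (SE 0.16, adjusted p = 6.5e-05) and 1.04 (SE 0.16, adjusted p = 4.57e-05). Bad overlaps Gpr137 on the opposite strand.

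The other BH3-only members differed less from Epi. Bid, which caspase-8 cleaves into its active form, was 38.7, 37.7, 39.0 and 27.2 TPM in Epi and 16.3, 26.9, 30.9 and 26.6 TPM in exEndo 1, a difference of -0.51 (SE 0.21, limma adjusted p = 0.0448) whose call was lost without Epi replicate 1, 2 or 3, exEndo 1 replicate 1, 2 or 4 or exEndo 2 replicate 4. The call of Bid held in 11 of 20 alternatives that give a p of their own, with limma adjusted p from 0.0113 to 0.148. These include leaving out each library of the fit in turn, also those of exEndo 2, which is not compared here. Bid overlaps Bcl2l13 on the opposite strand. Bik, a protein of the endoplasmic reticulum, was 2.14, 3.20, 2.53 and 1.51 TPM in Epi and 2.31, 6.61, 9.97 and 4.59 TPM in exEndo 1 (0.93, SE 0.35, adjusted p = 0.0324), with overlapping libraries and a call lost without Epi replicate 1 or 4 or exEndo 1 replicate 2 or 3. In exEndo 2 the differences of Bid and Bik were 0.00 (SE 0.21, adjusted p = 0.999) and 0.82 (SE 0.35, adjusted p = 0.0552). Bmf, linked to death after loss of attachment, was called in neither population, at 2.37 to 3.52 TPM in Epi, 1.13 to 5.57 TPM in exEndo 1 and 3.90 to 4.999 TPM in exEndo 2. In exEndo 2 against Epi, alternatives that give a p of their own called Bik higher in 5 of 20 and Bmf higher in 2 of 20.

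Pro-survival members showed small differences. Bcl2l1 was 12.8, 14.6, 19.3 and 8.65 TPM in Epi and 15.5, 25.4, 28.7 and 30.2 TPM in exEndo 1, with overlapping libraries and a difference of 0.82 (SE 0.27, limma adjusted p = 0.0156). Mcl1, whose protein is short-lived, was 49.5, 33.5, 30.8 and 49.4 TPM in Epi and 66.3, 46.9, 58.6 and 53.7 TPM in exEndo 1 (0.48, SE 0.17, adjusted p = 0.0232). Bcl2 was low in all 3 groups, at 1.01 to 1.76 TPM in Epi, 1.41 to 1.76 TPM in exEndo 1 and 0.545 to 1.29 TPM in exEndo 2, and was called lower in exEndo 2 (-0.41, SE 0.17, adjusted p = 0.0475), a call lost when any single library other than exEndo 2 replicate 1 was left out. The call of Bcl2l1 was lost without Epi replicate 4, and that of Mcl1 without Epi replicate 2 or 3 or exEndo 1 replicate 1 or 3. Rescaling the libraries by median ratios shifted the median of all genes by -0.14 for exEndo 1 and -0.10 for exEndo 2, and the calls of Mcl1 (adjusted p = 0.110) and Bik (adjusted p = 0.0626) in exEndo 1 were then lost.

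Between exEndo 1 and exEndo 2, 1 of 10 members was called, beside 13.48% of all genes. This was Bcl2, at 1.41, 1.76, 1.56 and 1.69 TPM in exEndo 1 and 1.29, 0.763, 0.545 and 0.548 TPM in exEndo 2. All exEndo 1 libraries were higher, by 0.56 (SE 0.17, limma adjusted p = 0.0449). Libraries of the same replicate number deviate together here, and with that number as a block the adjusted p of Bcl2 was 0.0630. With the block and only these 8 libraries it was 0.121, while Bcl2l1 (0.43, adjusted p = 0.0492) and Bid (-0.51, adjusted p = 0.0203) were called. The call of Bcl2 was lost when any single library other than exEndo 2 replicate 1 was left out, and without that library Bcl2 and Bid were called. The sums of epiblast and mesenchyme markers given above did not overlap between exEndo 1 and exEndo 2, with mesenchyme at 6.87 to 15.5 TPM in exEndo 1, nor did the germ cell sum (16.5 to 38.4 TPM in exEndo 1), and their part in the result was not tested. The differences of Bok, Bcl2l11 and Bad between the populations were 0.19 (SE 0.41), 0.07 (SE 0.21) and -0.03 (SE 0.16).

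At E9.5 the question is whether exGut cells differ from the emGut cells beside them. With both regions together, 0 of 10 members were called by limma, beside 3.61% of all 13473 genes, and 2 had an unadjusted p under 0.05; eBayes without a mean-variance trend also called 0. The 2 were Bmf (0.55, SE 0.24, adjusted p = 0.251) and Mcl1 (0.36, SE 0.16, adjusted p = 0.271). The mean of Bok was 56.9 TPM in exGut and 56.9 TPM in emGut. Bcl2l11 was 7.95 to 41.3 TPM in exGut and 11.5 to 27.1 TPM in emGut, and Bak1 was 4.96 to 13.2 and 4.21 to 13.1 TPM. The ranges of these 3 members overlap between the origins, with differences of -0.42 (SE 0.60, adjusted p = 0.799), 0.19 (SE 0.29, adjusted p = 0.820) and 0.10 (SE 0.23, adjusted p = 0.883). A p above the threshold does not show equal levels, and Bok spanned 6.89 to 121 TPM in exGut and 22.0 to 99.0 TPM in emGut.

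By region, 1 of 10 members was called in the midgut and 1 in the hindgut, beside 7.80% and 5.10% of all genes, which are shares of the same order. In the midgut it was Bok, at 6.89, 14.1, 20.0041 and 9.57 TPM in exMidgut and 22.0, 26.6, 26.3 and 23.7 TPM in emMidgut. All 4 exMidgut libraries were below all 4 emMidgut libraries, a difference of -1.003 (SE 0.30, limma adjusted p = 0.0391). Over 29 alternatives that give a p of their own the limma adjusted p ran from 0.0123 to 0.177 and the call held in 17. Many of these leave out a hindgut or YsEndo library, which is not compared here. Among the libraries compared, the call was lost without any single emMidgut library and without exMidgut replicate 1 or 4. The 6 visceral and yolk sac endoderm markers summed to 5794 to 11961 TPM in exMidgut and 873 to 1538 TPM in emMidgut, all 6 with higher means in exMidgut. The 5 neural markers summed to 0.0339 to 4.78 TPM in exMidgut and 14.9 to 57.5 TPM in emMidgut, with Sox10 and Neurog1 at 0 in both groups, and the part of either list in the result was not tested. Without both emMidgut libraries that hold Dppa3, Bok was not called (adjusted p = 0.132) and Bik was (2.15, adjusted p = 0.0293). In the hindgut Bok was 121, 95.6, 112 and 75.4 TPM in exHindgut and 91.5, 84.6, 99.0 and 81.4 TPM in emHindgut, which overlap (0.16, SE 0.30, adjusted p = 0.858).

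In the hindgut the called member was Bmf, at 22.1, 30.0, 29.3 and 28.0 TPM in exHindgut and 13.04, 11.7, 14.3 and 15.0 TPM in emHindgut. Every exHindgut library was above every emHindgut library, by 0.96 (SE 0.27, limma adjusted p = 0.0342). The call held in 21 of 28 alternatives that give a p of their own, with limma adjusted p from 0.0172 to 0.0951. Many of these leave out a midgut or YsEndo library, which is not compared here. Among the libraries compared, the call was lost without any single emHindgut library and without exHindgut replicate 2, 3 or 4. The marker sum of visceral and yolk sac endoderm was 29.8 to 655 TPM in exHindgut, where Cubn was at 0 in all libraries, and 4.14 to 40.9 TPM in emHindgut. The mesenchyme markers summed to 19.9 to 27.8 TPM in exHindgut and 30.0 to 46.7 TPM in emHindgut, without overlap, and the part of either list in the result was not tested. In the midgut Bmf overlapped, at 18.8 to 36.6 TPM in exMidgut and 18.6 to 47.0 TPM in emMidgut. Mcl1 did not overlap in the hindgut either, at 25.02 to 27.8 TPM in exHindgut and 18.3 to 23.4 TPM in emHindgut, but was not called (0.31, SE 0.21, adjusted p = 0.474). The test of whether the origin difference changes with region called 0 of 10 members by limma, beside 0.298% of all genes, and 0 without a trend, with 2 members at an unadjusted p under 0.05, Bok (1.16, SE 0.42, adjusted p = 0.309) and Bmf (0.83, SE 0.38, adjusted p = 0.489).

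Region set members apart within each origin. In embryonic cells 4 of 10 were called between hindgut and midgut, 2 higher and 2 lower in the hindgut, beside 23.9% of all genes, and in extraembryonic cells 5 of 10, 3 higher and 2 lower, beside 23.8%. Bok was higher in emHindgut than in emMidgut by 1.81 (SE 0.30, limma adjusted p = 7.39e-05), with 3.62 times the mean TPM, and in exHindgut than in exMidgut by 2.98 (SE 0.30, adjusted p = 9.92e-08), with 7.99 times the mean TPM. Its hindgut and midgut libraries did not overlap in either origin. Bik was 12.7, 0.355, 6.45 and 2.96 TPM in emMidgut and 17.4, 26.8, 34.95 and 28.1 TPM in emHindgut (2.48, SE 0.55, adjusted p = 0.00165). It was 18.1, 16.5, 8.67 and 2.45 TPM in exMidgut and 34.0, 36.9, 24.4 and 44.7 TPM in exHindgut (1.78, SE 0.55, adjusted p = 0.01996). All hindgut libraries of Bik were above all midgut libraries of the same origin.

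Marker lists also separated the regions. In embryonic cells the visceral and yolk sac endoderm sum was 873 to 1538 TPM in the midgut and 4.14 to 40.9 TPM in the hindgut, the mesenchyme sum 4.91 to 14.4 and 30.0 to 46.7 TPM and the neural sum 14.9 to 57.5 and 2.501 to 10.4 TPM, all without overlap. In extraembryonic cells the visceral and yolk sac endoderm sum was 5794 to 11961 and 29.8 to 655 TPM and the mesenchyme sum 4.49 to 15.4 and 19.9 to 27.8 TPM, without overlap, while the neural sums overlapped. The germ cell sum was 71.1 to 328 TPM in emMidgut and 7.12 to 15.2 TPM in emHindgut, and 56.4 to 103 TPM in exMidgut and 10.4 to 23.6 TPM in exHindgut, again without overlap. Of that list, Prdm1 alone was 66.0 to 101, 6.61 to 9.12, 54.5 to 101 and 9.05 to 20.6 TPM in these groups. The gut endoderm sum was 1383 to 1444 and 705 to 875 TPM in embryonic and 1270 to 1393 and 841 to 1052 TPM in extraembryonic midgut and hindgut, without overlap. Their part in the differences between regions was not tested.

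Bcl2 was lower in the hindgut. It was 4.82, 5.21, 17.7 and 26.9 TPM in emMidgut and 4.03, 3.65, 2.63 and 3.76 TPM in emHindgut (-1.39, SE 0.44, limma adjusted p = 0.0242). It was 3.13, 6.47, 14.1 and 6.49 TPM in exMidgut and 1.49, 3.34, 2.14 and 2.14 TPM in exHindgut (-1.26, SE 0.44, adjusted p = 0.0409). The embryonic groups did not overlap, though emMidgut itself spread widely, and the extraembryonic groups overlapped. The embryonic call was lost without emMidgut replicate 3 or 4 or emHindgut replicate 3, and the extraembryonic call without exMidgut replicate 2, 3 or 4 or exHindgut replicate 1, 3 or 4. In extraembryonic cells the calls of Bcl2l11 and Bik were lost without exHindgut replicate 4, that of Bcl2l11 also without exMidgut replicate 2 and that of Bik also without exMidgut replicate 4. Bmf was lower in emHindgut than in emMidgut (-0.96, SE 0.27, adjusted p = 0.0104), a call lost without emMidgut replicate 4, and differed by -0.13 (SE 0.27) in extraembryonic cells. Bcl2l11 was lower (-1.09, SE 0.33, adjusted p = 0.0171) and Bcl2l1 higher (0.60, SE 0.17, adjusted p = 0.0114) in exHindgut than in exMidgut, and in embryonic cells they differed by -0.14 (SE 0.33) and 0.21 (SE 0.17). With single libraries left out, embryonic cells gave 2 called members without emMidgut replicate 4, and extraembryonic cells gave 3 without exMidgut replicate 2, 3 without exMidgut replicate 4 and 2 without exHindgut replicate 4.

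**Figure D2:**
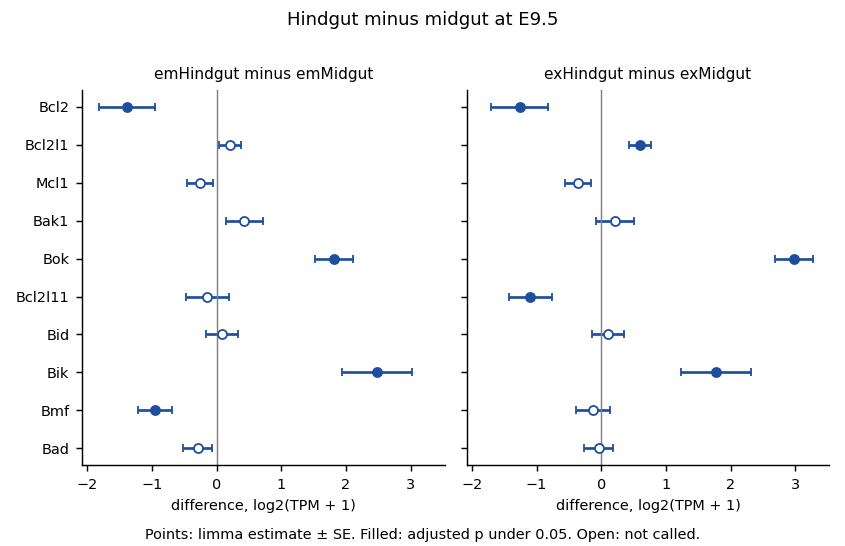
Difference between hindgut and midgut at E9.5 for each member in log2(TPM + 1), as limma estimate ± SE, with n = 4 libraries in each group; filled points were called. Bok and Bik lie to the right of 0 (higher in the hindgut) in both origins and Bcl2 to the left.

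The comparison of exGut with YsEndo asks how the 2 fates of extraembryonic endoderm differ. There, 9 of 10 members were called, 7 higher and 2 lower in exGut, beside 64.8% of all 13776 genes, and the members' median was 1.58 against 0.57 over all genes. Median-ratio rescaling shifted the median of all genes by -0.44 and moved the share of calls that are higher in exGut from 75.1% to 52.1%. Of the members, Bcl2l1 (0.25, adjusted p = 0.150) and Bik (0.81, adjusted p = 0.138) then lost their call and Bad (-0.58, adjusted p = 0.0115) gained one. The differences of Mcl1 and Bid, called either way, moved to -1.01 and -1.29. The marker sum of visceral and yolk sac endoderm was 49807 to 57886 TPM in YsEndo and 29.8 to 11961 TPM in exGut. The gut endoderm sum was 408 to 469 TPM in YsEndo and 841 to 1393 TPM in exGut, and the blood sum 2.91 to 6.92 and 0 to 0.157 TPM. The surface ectoderm markers were all at 0 in YsEndo and summed to 6.20 to 13.4 TPM in exGut. These 4 lists did not overlap between the tissues, and their part in the differences was not tested.

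The effectors Bok and Bak1 were low in YsEndo. Bok was 0.227, 2.56, 0.844 and 0.289 TPM there and 6.89 to 121 TPM in exGut, a difference of 4.32 (SE 0.26, limma adjusted p = 1.00e-12) and 58.0 times the mean TPM, and its lowest coverage in YsEndo was 0.382 reads per base. The ratio was 125 without YsEndo replicate 2, and with all libraries it was 12.9 for exMidgut and 103 for exHindgut. Bak1 was 1.68, 1.40, 1.55 and 1.73 TPM in YsEndo and 4.96 to 13.2 TPM in exGut (1.83, SE 0.25, adjusted p = 1.22e-06). For both, every exGut library was above every YsEndo library. Bcl2l11 was 1.89, 0.926, 2.55 and 1.93 TPM in YsEndo and 7.95 to 41.3 TPM in exGut (3.07, SE 0.28, adjusted p = 2.21e-09). Bmf was 5.59, 2.74, 3.05 and 3.84 TPM in YsEndo and 18.8 to 36.6 TPM in exGut (2.65, SE 0.23, adjusted p = 7.73e-10). These 2 BH3-only members did not overlap either.

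Bcl2 was 0.120, 0.228, 0.129 and 0.594 TPM in YsEndo and 1.49 to 14.1 TPM in exGut (1.99, SE 0.38, limma adjusted p = 8.98e-05), also without overlap. Bid went the other way, with 36.3, 44.8, 48.3 and 54.3 TPM in YsEndo above all exGut libraries at 19.2 to 35.9 TPM (-0.71, SE 0.22, adjusted p = 0.00644). Mcl1 was lower in exGut too (-0.43, SE 0.18, adjusted p = 0.0404), with overlapping libraries and a call lost without exMidgut replicate 2 or 3, exHindgut replicate 2 or 4 or YsEndo replicate 1, 2 or 3. Bcl2l1 was higher in exGut (0.83, SE 0.15, adjusted p = 2.94e-05), and so was Bik (1.33, SE 0.47, adjusted p = 0.0169), whose call was lost without YsEndo replicate 1. Bad was 28.1 to 41.3 TPM in exGut and 30.7 to 38.8 TPM in YsEndo.

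**Figure D3:**
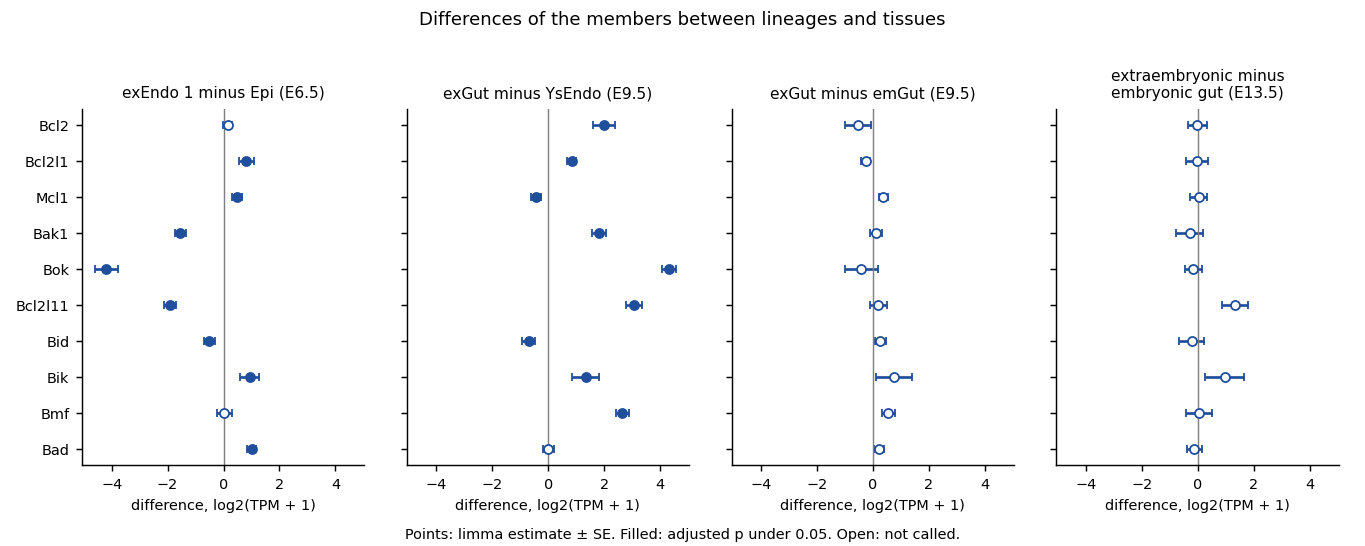
Differences of the 10 members in log2(TPM + 1) for exEndo 1 minus Epi (n = 4 each), exGut minus YsEndo (n = 8 and 4), exGut minus emGut (n = 8 each) and extraembryonic minus embryonic intestine at E13.5 (n = 6 each), as limma estimate ± SE; filled points were called. Bok, Bak1 and Bcl2l11 lie to the left of 0 (lower) in exEndo 1 against Epi and to the right in exGut against YsEndo and were not called between exGut and emGut.

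Stages were compared within a lineage in a fit of all 44 libraries, in which stage goes together with differences in isolation and pooling. From exEndo 1 to exGut 8 of 10 members were called, 7 higher and 1 lower, beside 43.2% of all 14689 genes, with a median of 1.11 against 0.13. Bok (3.59, SE 0.33, limma adjusted p = 1.08e-11), Bmf (2.83, SE 0.30, adjusted p = 2.64e-10), Bcl2l11 (1.92, SE 0.32, adjusted p = 4.71e-06) and Bak1 (1.196, SE 0.27, adjusted p = 0.000451) rose, each with no overlap between the stages. Mcl1 fell by 0.87 (SE 0.20, adjusted p = 0.000509), from 46.9 to 66.3 TPM to 25.02 to 43.4 TPM, also without overlap. Bcl2l1 rose by 1.02 (SE 0.27, adjusted p = 0.00205). The rise of Bcl2 (0.94, SE 0.33, adjusted p = 0.0206) was not called without replicate 2, 3 or 4 of every group, nor that of Bik (1.60, SE 0.56, adjusted p = 0.0196) without replicate 1. The call of Bik held in 9 of 11 alternatives that give a p of their own, with limma adjusted p up to 0.174. The epiblast sum was 52.3 to 393 TPM in exEndo 1 and 0 to 5.30 TPM in exGut, the gut endoderm sum 456 to 548 and 841 to 1393 TPM and the surface ectoderm sum 0.0477 to 0.666 and 6.20 to 13.4 TPM, all without overlap, and their part in the changes was not tested.

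From Epi to emGut 6 of 10 were called, 5 higher and 1 lower, beside 41.0% of all genes, and rescaling shifted the median of all genes by -0.17 and the share of calls that are higher from 69.1% to 55.7%. Bmf (2.31, SE 0.30, limma adjusted p = 2.58e-08), Bcl2l1 (2.10, SE 0.27, adjusted p = 2.96e-08) and Bcl2 (1.63, SE 0.33, adjusted p = 0.000106) rose without overlap, and Bad (1.01, SE 0.20, adjusted p = 9.05e-05) and Bik (1.80, SE 0.56, adjusted p = 0.00933) rose with overlapping libraries. The call of Bik was lost without replicate 1, 3 or 4 of every group and without both emMidgut libraries that hold Dppa3 (adjusted p = 0.0818). Mcl1 fell by 0.75 (SE 0.20, adjusted p = 0.00243). With rescaling Bid was called lower too (-0.83, adjusted p = 0.0311). Bok (-0.18, SE 0.33, adjusted p = 0.705), Bcl2l11 (-0.19, SE 0.32, adjusted p = 0.682) and Bak1 (-0.45, SE 0.27, adjusted p = 0.193) were not called. These 3 members thus had a called rise from exEndo 1 to exGut and none from Epi to emGut; the difference between the 2 changes was not tested. The epiblast sum was 1648 to 2867 TPM in Epi and 0 to 159 TPM in emGut, the gut endoderm sum 376 to 469 and 705 to 1444 TPM, the surface ectoderm sum 0.00861 to 0.173 and 3.28 to 13.51 TPM and the visceral and yolk sac endoderm sum 0.823 to 2.37 and 4.14 to 1538 TPM, all without overlap, and their part was not tested.

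From exEndo 2 to YsEndo 2 of 10 were called, both lower, beside 29.6% of all genes. Bak1 fell by 1.15 (SE 0.32, limma adjusted p = 0.00482) and Bcl2l11 by 1.08 (SE 0.37, adjusted p = 0.0240), without overlap. Rescaling shifted the median of all genes by 0.25 and the share of calls that are higher from 26.3% to 59.9%, and the call of Bcl2l11 was then lost (adjusted p = 0.145), as it was without replicate 1, 2 or 4 of every group. Bcl2l1 (0.62, SE 0.31, adjusted p = 0.137) was then called higher (1.07, adjusted p = 0.00896), as it was with the groups compared only (adjusted p = 0.0133). Bok differed by -0.53 (SE 0.38, adjusted p = 0.322). Of the marker lists, 6 were without overlap between exEndo 2 and YsEndo, and their part was not tested. The visceral and yolk sac endoderm sum was 4498 to 8469 and 49807 to 57886 TPM, the mesenchyme sum 45.4 to 88.0 and 9.49 to 16.5 TPM and the epiblast sum 5.21 to 35.1 and 0.345 to 1.86 TPM. The germ cell sum was 2.002 to 2.84 and 7.86 to 12.2 TPM, the blood sum 0.230 to 1.06 and 2.91 to 6.92 TPM and the neural sum 0.652 to 2.11 and 0 to 0.333 TPM.

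At E13.5 the comparison is between Trp53 KO extraembryonic and WT embryonic cells of the intestine. Over both organs 0 of 10 members were called by limma, with 1 at an unadjusted p under 0.05, beside 0.905% of all 12483 genes. In the colon 0 and in the small intestine 0 were called, each with 0 at an unadjusted p under 0.05, beside 0.657% and 0.521% of all genes. The test of a change of the origin difference with organ called 0, with 0 at an unadjusted p under 0.05, beside 0.0160%. Between colon and small intestine 0 were called, with 0 at an unadjusted p under 0.05, beside 1.79%. eBayes without a trend called 0 in each of these comparisons.

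The member with the low unadjusted p was Bcl2l11. It was 26.0, 22.4 and 14.1 TPM in exSI and 6.10, 10.8 and 5.45 TPM in emSI. It was 8.65, 22.4 and 27.5 TPM in exColon and 2.60, 8.39 and 11.8 TPM in emColon. The small intestine groups did not overlap and the colon groups did, and the mean TPM of extraembryonic cells over both organs was 2.68 times that of embryonic cells (1.34, SE 0.47, limma adjusted p = 0.247). The marker sum of visceral and yolk sac endoderm was 2346 to 3890 TPM in exSI against 745 to 1297 TPM in emSI and 2166 to 5771 TPM in exColon against 1386 to 2088 TPM in emColon, and the mesenchyme sum was 0 to 1.05 against 1.75 to 307 TPM and 0.169 to 5.57 against 6.20 to 11.7 TPM. The gut endoderm sum was 1495 to 1968 TPM in exSI against 1038 to 1494 TPM in emSI and the neural sum 0 to 0.179 TPM in exColon against 0.188 to 15.3 TPM in emColon. None of these pairs of sums overlapped, and the part of the lists was not tested. The test of the origin difference at E13.5 against that at E9.5 called 0 of 10 members by limma, beside 3.85% of all genes, and 0 without a trend. It had 1 member at an unadjusted p under 0.05, again Bcl2l11 (1.15, SE 0.40, limma adjusted p = 0.0946). Between these stages the sort gate of embryonic cells and the genotype of extraembryonic cells change as well.

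Bok was 51.2, 43.3 and 89.0 TPM in emSI and 67.0, 42.1 and 80.5 TPM in exSI. It was 122, 57.4 and 78.0 TPM in emColon and 96.3, 37.7 and 63.8 TPM in exColon. The origins overlapped in both organs (-0.17, SE 0.30, limma adjusted p = 0.876). Bik was listed at 0 in all 3 emColon libraries and was 0.946, 9.09 and 0.240 TPM in exColon, so no fold is given. The SEs of the members' single-organ differences ran from 0.38 to 0.99, against 0.17 to 0.55 for the regions of E9.5.

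From emGut to the embryonic intestine of E13.5 6 of 10 members were called, 2 higher and 4 lower, beside 44.6% of all genes. From exGut to the extraembryonic intestine 7 of 10 were called, 3 higher and 4 lower, beside 35.9%. Rescaling shifted the median of all genes by 0.21 and 0.13 and the share of calls that are higher from 18.8% to 35.5% and from 26.9% to 40.3%. With rescaling 9 members were called in the embryonic lineage, with Mcl1 (0.60, adjusted p = 0.00418), Bid (0.88, adjusted p = 0.0114) and Bok (0.82, adjusted p = 0.0241) called higher as well, and 6 in the extraembryonic lineage, where Bak1 was no longer called (adjusted p = 0.0518). None of the 9 marker sums was without overlap between the stages in either lineage. In the extraembryonic lineage WT cells are set against KO cells, so stage and genotype cannot be told apart. In the embryonic lineage dual+ cells are set against cells sorted by GFP, so stage and sort gate cannot be told apart.

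Bcl2 rose in both lineages, by 1.63 (SE 0.29, limma adjusted p = 2.44e-05) in embryonic and 2.15 (SE 0.29, adjusted p = 2.55e-07) in extraembryonic cells. All extraembryonic libraries of E13.5 (14.3 to 31.6 TPM) were above all exGut libraries (1.49 to 14.1 TPM), while embryonic libraries overlapped. Bad rose as well, by 0.85 (SE 0.18, adjusted p = 0.000210) and 0.53 (SE 0.18, adjusted p = 0.0190). Bcl2l1 fell by 1.04 (SE 0.24, adjusted p = 0.000576) and 0.82 (SE 0.24, adjusted p = 0.00636), and Bmf by 1.32 (SE 0.26, adjusted p = 9.18e-05) and 1.83 (SE 0.26, adjusted p = 6.16e-07). Bik was also called lower in both lineages (adjusted p = 2.67e-05 and 0.000109), with libraries at 0 in which the size depends on the added 1 TPM. Bcl2l11 fell in the embryonic lineage by 1.37 (SE 0.28, adjusted p = 0.000154) and differed by -0.22 (SE 0.28, adjusted p = 0.572) in the extraembryonic lineage. Bok (0.80, SE 0.29, adjusted p = 0.0289) and Bak1 (-0.75, SE 0.24, adjusted p = 0.0132) were called in the extraembryonic lineage, but Bok not without replicate 1, 3 or 4 of every group and Bak1 not without replicate 2, 3 or 4. In the embryonic lineage Bok differed by 0.55 (SE 0.29, adjusted p = 0.123), and it was called there with rescaling, FPKM and the groups compared only. The change of Bok in the extraembryonic lineage minus that in the embryonic lineage was 0.25 (SE 0.41, adjusted p = 0.798) by limma. The calls of Bcl2l1 without replicate 3 and of Bad without replicate 2 or 4 were lost there too, and 4 members were called without replicate 3 or without replicate 4.

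The share of each role in the summed TPM of the 10 members is given as a description without a test. Effectors are here Bak1 and Bok only, as Bax is not among the 10 members. Bok averaged 101 TPM of a mean effector sum of 110 TPM in exHindgut and 2.16 TPM of 5.22 TPM in exEndo 1. Effectors made up 32.6 ± 4.36% in Epi (SD over libraries), 3.31 ± 1.02% in exEndo 1, 4.37 ± 1.26% in exEndo 2 and 1.58 ± 0.651% in YsEndo. They made up 13.3 ± 2.41% in emMidgut, 8.44 ± 2.94% in exMidgut, 32.9 ± 2.31% in emHindgut and 27.8 to 34.9% in the exHindgut libraries, and 24.3 to 29.5% on average in the groups of E13.5. By group mean, the low shares are thus those of the extraembryonic tissues outside the gut, and the midgut lies between them and the hindgut. Single libraries overlap, with 4.92% in exMidgut replicate 1 and 6.17% in exEndo 2 replicate 4. Pro-survival members made up 52.9 ± 3.94% in exEndo 1, the highest group mean, and 28.5 ± 5.24% in Epi. They made up 44.5 ± 3.19% in exEndo 2, 42.5 ± 5.65% in YsEndo and 40.3 ± 2.93% in emMidgut. The lowest mean was 26.7 ± 1.26% in exHindgut. The summed level of the 10 members was 199 ± 22.5 TPM in Epi, 157 to 165 TPM on average in exEndo 1, exEndo 2 and YsEndo, and 239.8 to 342 TPM on average in the gut groups of E9.5.

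**Figure D4:**
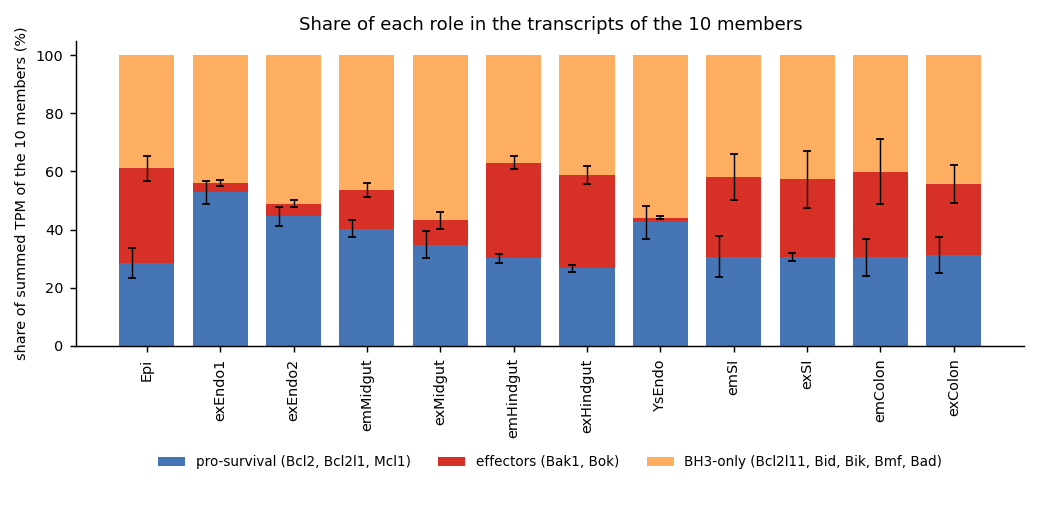
Mean share (%) of pro-survival, effector and BH3-only members in the summed TPM of the 10 members in each of the 12 groups; error bars are the SD over libraries of the pro-survival and the effector share, drawn at the top of their segment. The effector share (Bak1 and Bok, without Bax) is 1.58 to 4.37% in exEndo 1, exEndo 2 and YsEndo and 8.44% or more elsewhere.

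Over the 12 group means of log2(TPM + 1), the protein-coding genes most like Bok, among 14696, were Apex1 (Pearson r = 0.981), Rfc3 (0.979) and Mid1ip1 (0.975). For Bik they were Slc5a3 (r = 0.925), Eogt (0.907) and Dmgdh (0.899), and for Bcl2 Ncmap (r = 0.973), Cftr (0.972) and Cldn23 (0.969). These are descriptions over 12 points that share stages and lineages.

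Other genes of the pathway were counted in 3 lists, beside 64.1% of all genes called in exEndo 1 against Epi, 64.8% in exGut against YsEndo and 3.61% in exGut against emGut. All 3 p53-target members, Bax, Bbc3 and Pmaip1, were lower in exEndo 1 than in Epi, with a median of -1.13, and Pmaip1, a BH3-only gene, fell most (-3.71, SE 0.31, limma adjusted p = 8.76e-08). In exGut 1 of the 3 was higher than in emGut, the effector Bax (0.52, SE 0.13, adjusted p = 0.0368), and 2 were higher than in YsEndo, most of all Bbc3 (2.35). The study took its p53 interest from these libraries, so this list is not independent evidence of its direction. Of 7 inhibitors of apoptosis and their antagonists, 3 were higher (Birc3, 1.40) and 2 lower (Diablo, -0.72) in exEndo 1 than in Epi, and 4 were higher (Birc2, 1.67) and 1 lower (Birc5, -1.35) in exGut than in YsEndo. Of 6 other family members tested from a list of 11, 1 was higher (Bcl2l2, 0.51) and 1 lower (Bnip3l, -0.67) in exEndo 1 than in Epi, and 4 were higher (Bcl2l12, 2.72) in exGut than in YsEndo. No test sets these shares apart from those of all genes. Between exGut and emGut the last 2 of these lists had 0 genes called by limma. By region, Birc5 was called lower (-0.64, limma adjusted p = 0.0243) and Pmaip1 higher (1.77, adjusted p = 0.0242) in exMidgut than in emMidgut, beside 7.80% of all genes. Bax was called higher in exHindgut than in emHindgut (0.69, limma adjusted p = 0.000314), beside 5.10% of all genes. At E13.5 all 3 lists had 0 called between the origins. All genes had 0.905% called there over both organs, 0.657% in the colon and 0.521% in the small intestine. Over stages that also differ in sort gate and genotype, the test of the origin difference at E13.5 against that at E9.5 called 3.85% of all genes. It called 1 of the 3 p53-target members, Bax (-1.095, SE 0.17, limma adjusted p = 0.000156). It also called 1 of the 7 inhibitors and antagonists, Birc2 (1.76, SE 0.46, adjusted p = 0.0220), and 0 of the 6 other family members.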

How the data were processed

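Low-input poly(A) RNA libraries were made by the authors with a Smart-seq2-based protocol from E6.5 tissues, sorted E9.5 cells and sorted E13.5 cells (44 libraries). Per the submitters' processing notes, reads were handled with cutadapt 4.1, STAR 2.7.9a and StringTie 2.0.6 on mm10. The authors deposited TPM, FPKM and coverage values per gene, and rows that repeat a gene identifier (3 to 11 in a library) were summed here. Deposited TPM sums to the same total in every library, so read depth is unknown, and deposited coverage (reads per base) stands in for it. Gene types came from GENCODE release 21, while the authors used release 23; 32237 of 32287 identifiers matched.

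log2(TPM + 1) was fitted with limma 3.58.1 (lmFit and eBayes with trend, R 4.3.3) over protein-coding genes off the Y chromosome that exceeded 1 TPM in 4 or more libraries of the fit (3 or more for E13.5), with Benjamini-Hochberg adjustment over all of them. Tables and figures used Python 3.11.15, NumPy 2.4.6, pandas 2.3.3 and matplotlib 3.10.9. The fit was checked on simulated data. The 10 members were all named, lists by counts and their largest called rise and fall, and similar genes for the 3 members of widest range. A further pathway list is not reported here. Members and lists were chosen with earlier results of these data known.

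Alternatives were a pseudocount of 0.1, no filter, median-ratio rescaling, FPKM, no trend, all gene types, a log2 fold change above 1 as well, a term for region, the groups compared only, a replicate block and leaving out libraries. Leaving out the emMidgut libraries with Dppa3 above 10 TPM, and the block in exEndo 1 and exEndo 2 alone, were chosen after seeing the data. Replicate numbers were taken to pair the samples where deviations of all same-numbered libraries correlated above 0.1. This held only for exEndo 1 and exEndo 2, at 0.146 to 0.380 in all 4 pairs. Weaker pairing elsewhere is not excluded. For emSI and exSI, all 3 libraries correlated best with their own number, at 0.0486 to 0.0635, and for emSI and emColon 0 did. The labels do not say what the number marks. The p-values measure the spread between libraries, some of which may come from the same embryos or pools, since regions, organs and both origins can come from the same embryos and the labels do not tie libraries to them.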

Additional observations from a re-analysis of the deposited data

Results flagged for a closer look

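In groups of 4 libraries, the gap between the lowest or highest library and its nearest neighbour was compared with the whole range of the group on the log2(TPM + 1) scale. Of 80 sets of a member and a group, 2 had a library set apart by Dixon's critical value for 4 libraries, and chance alone gives about 1 in 20 sets. Bid in Epi replicate 4 was 27.2 TPM against 37.7 to 39.0 TPM in the others, a gap of 0.905 of the range. That library was also the lowest of Epi in EGFP, Trp53 and Pou5f1. Bmf in exMidgut replicate 3 was 18.8 TPM against 33.7 to 36.6 TPM in the others, a gap of 0.875 of the range.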

How the results depend on the processing

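Counts of called members out of 10 depended on the processing in these comparisons, and the cause was not tested. FPKM gave 0 for exEndo 1 against exEndo 2 and 1 from exEndo 2 to YsEndo. A log2 fold change above 1 as well gave 0 for exHindgut against emHindgut, 4 for exEndo 1 against Epi, 0 for exEndo 1 against exEndo 2 and 3 from exGut to the E13.5 extraembryonic intestine. For exMidgut against emMidgut the count was 0 without a trend, with rescaling, with no filter, with a pseudocount of 0.1 and with the groups compared only. The last 3 of these gave 3 for extraembryonic hindgut against midgut and 0 for exEndo 1 against exEndo 2, as did all gene types for the latter. The replicate block gave 0 for exEndo 1 against exEndo 2, and 2 with the groups compared only. Elsewhere it changed only Bcl2 (adjusted p = 0.0636, limma) and Bik (0.0368) in exEndo 2 against Epi, whose numbers did not pair the samples by the rule above. With libraries left out, counts ran from 0 to 2 for exEndo 1 against exEndo 2, 0 to 1 for exHindgut against emHindgut and exMidgut against emMidgut, 2 to 4 and 2 to 5 for hindgut against midgut in embryonic and extraembryonic cells, 1 to 2 from exEndo 2 to YsEndo and 4 to 6 from exGut to the E13.5 extraembryonic intestine. Without both emMidgut libraries that hold Dppa3, the member called in the midgut was Bik (2.15, adjusted p = 0.0293) and not Bok (adjusted p = 0.132). Of 188 counts under other alternatives 168 were within 1.5 times the reported count, and of 256 with libraries left out 222 were. Of 1240 values of the 63 called member differences, 1088 were called in the same direction, 152 were no longer called and 0 had the other sign. Except in the stage comparisons, each library of a fit was left out in turn, also those of groups not compared. Leaving out such a library changes only the shared estimate of the spread and the genes tested, so these totals are a weak check. Low coverage limits Bik most, and Bok and Bcl2 in YsEndo.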
